A study of Homo sapiens with 17 samples.

Results

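Digestive enzymes of the intestinal brush border and the carriers of nutrients, bile acids, ions and drugs were examined for the histone variant H2A.Z at their genes. The 39 genes were taken from a named list of 15 hydrolases and luminal receptors and 24 transporters, and all 39 were found by symbol among the 20037 protein-coding genes of the RefSeq annotation on chromosomes 1 to 22, X and Y. The cells were Caco-2/15, a human colon cancer line that acquires enterocyte features after it reaches confluence. All groups carried a Flag tag on 1 allele of an H2A.Z gene, either H2AFZ (heterozygous H2AFZ-Flag, for isoform H2A.Z.1) or H2AFV (heterozygous H2AFV-Flag, for isoform H2A.Z.2), so protein from the untagged allele was not seen. Each tagged line was sampled subconfluent and at 7 days of postconfluence, and the chromatin was precipitated with a Flag antibody (ChIP-seq) in the presence of spike-in chromatin. There were 2 experiments (Exp1 and Exp2) for each of the 4 groups, which gave 8 lists of enriched intervals. The labels do not say whether the duplicates were separate cultures or whether a tagged line was 1 clone, so the spread between them may be technical.

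H2A.Z replaces histone H2A in some nucleosomes, above all in those that flank active and poised transcription starts. Its isoforms H2A.Z.1 and H2A.Z.2 come from separate genes and differ at few residues. Brush border genes are switched on as epithelial cells leave the crypt and become absorptive enterocytes, under factors that include CDX2, HNF4A and GATA4. Their products finish the digestion of starch, sugars and peptides at the cell surface and take up the products.

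Each list was reduced to its 30603 strongest intervals by −log10 p, because the lists as deposited ranged from 30603 to 79425 intervals. A gene end counted as occupied where an interval reached within 1 kb of it, and the strength of an interval is given as its percentile of fold enrichment within its own list. Peak lists hold no read depth, and a region without an interval may hold signal under the authors' threshold. In bulk chromatin, H2A.Z in fewer cells and less H2A.Z per cell cannot be told apart. The names of the intervals carried 3 run names: H2A.Z.1 of Exp1 was in 1 run, H2A.Z.2 of Exp1 in another, and all 4 lists of Exp2 in the third, so that isoform and run cannot be told apart within Exp1. Of 14 markers of intestinal epithelium, CDX1, CDX2, CDH1 and HNF4A (28.6%) were occupied at an annotated gene end in all 8 lists, against 54.5% of all genes. Those occupied in none (21.4%, against 33.1% of all genes) included CDH17 and KRT20. Of the markers of other cell types, 1 of 6 for fibroblasts (COL1A1, 16.7%) and 1 of 5 for secretory cells (SPINK4, 20%) were occupied in all 8 lists. For blood, endothelium, neurons and muscle, 0 of 14 were. The share of every marker set, epithelial included, was under that of all genes. Occupancy is not expression, and these counts describe chromatin only.

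Of the 39 digestive and transporter genes, 21 had no tagged H2A.Z interval at an annotated end in the reduced lists and 8 had one in every list. The 8 make up 20.5%, where the share among all protein-coding genes was 54.5%. They were the hydrolases TREH, ANPEP and DPP4 and the transporters SLC15A1, SLC7A9, SLC1A1, SLC40A1 and SLC46A1. The 21 empty genes make up 53.8%, against 33.1% of all genes, and 10 genes had one in 1 to 7 lists (12.4% of all genes did). In the whole lists 16 of the 39 genes were empty (26.1% of all genes). With a 2 kb window in the reduced lists 16 were empty, and the share of all genes was not counted there. Per list, 11 to 15 of the 39 genes were occupied (28.2% to 38.5%), against 59.6% to 62.0% of all genes. Both kinds of member were sparse: 3 of the 15 hydrolases and receptors and 5 of the 24 transporters were occupied in all 8 lists, and 10 and 11 of them in none. The difference from all genes was not tested, since the genes were chosen as a list with earlier results of these data known.

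Several of these genes are annotated with an outer end far upstream of the start that RefSeq promoters give. A RefSeq start was known for 34 of the 39 genes (not for LCT, MEP1A, NAALADL1, SLC3A1 and SLC28A2). An interval stood within 1 kb of such a start in all 8 lists for 10 of the 34 genes, in 1 to 7 lists for 11 and in no list for 13. Among all genes with a known start, 57.8% were occupied in all 8 lists and 31.1% in none. The 10 were TREH, DPP4, SLC15A1, SLC7A9, SLC1A1, SLC11A2, SLC40A1, SLC46A1, ABCB1 and ABCG2. ABCB1, ABCG2, SLC2A5 and, in 1 list, GGT1 were occupied at an inner start while both annotated ends were empty.

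**Figure D1:**
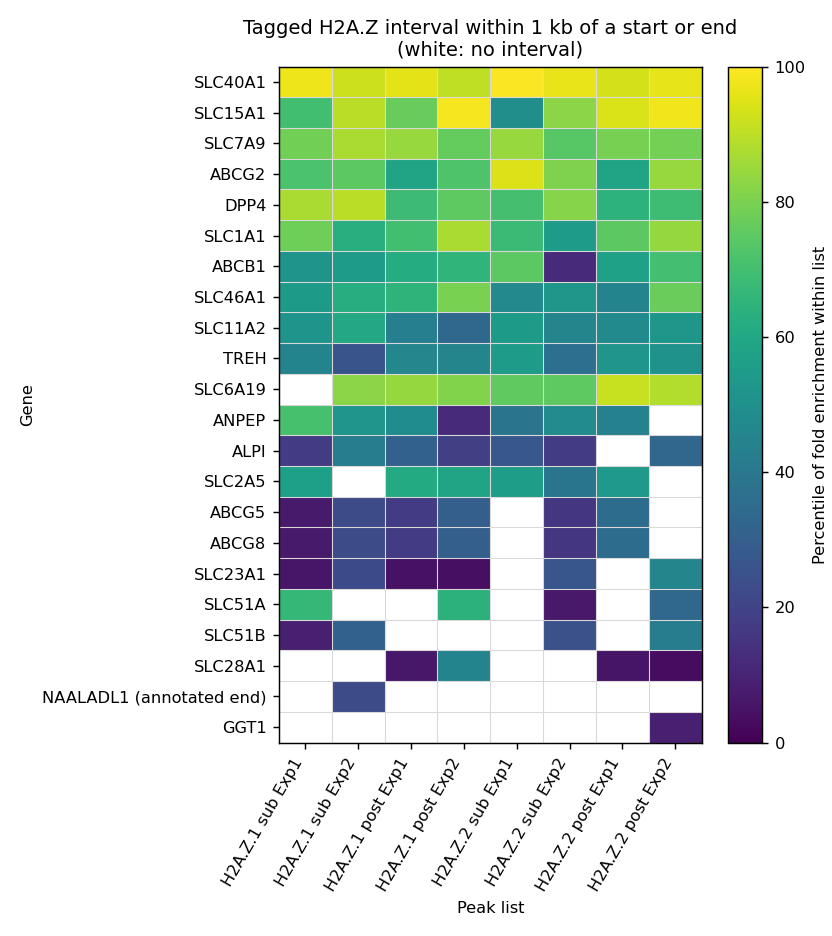
Percentile of fold enrichment (colour, 0 to 100) of the strongest interval within 1 kb of a RefSeq start, for each of the 21 genes with one in at least 1 list, and of an annotated end for NAALADL1, whose start is not known (rows) and each of the 8 peak lists (columns; sub, subconfluent; post, postconfluent), with white where the list had none. SLC40A1 stood between 90.3 and 99.5 in all 8 lists, and the lower rows are patchy and mostly under 50.

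The 250 bases before the start of 6 of these genes show the contrast between occupied and empty promoters. SLC40A1 and SLC15A1 had strong intervals at CpG-rich starts, and SLC7A9 a strong interval at a CpG-poor one. SI was empty with 0 CpG, and SLC9A3 was empty although CpG-rich. In the reduced lists, SLC28A1 was occupied in postconfluent lists only. The sequences are those of RefSeq on GRCh38.p14, 5′ to 3′ along the gene's strand, with each CpG dinucleotide in capitals. They lie at chr2:189580787-189581036 (minus strand) for SLC40A1, chr13:98752673-98752922 (minus) for SLC15A1, chr19:32869768-32870017 (minus) for SLC7A9, chr3:165078497-165078746 (minus) for SI, chr5:524450-524699 (minus) for SLC9A3 and chr15:84884412-84884661 (plus) for SLC28A1.
SLC40A1: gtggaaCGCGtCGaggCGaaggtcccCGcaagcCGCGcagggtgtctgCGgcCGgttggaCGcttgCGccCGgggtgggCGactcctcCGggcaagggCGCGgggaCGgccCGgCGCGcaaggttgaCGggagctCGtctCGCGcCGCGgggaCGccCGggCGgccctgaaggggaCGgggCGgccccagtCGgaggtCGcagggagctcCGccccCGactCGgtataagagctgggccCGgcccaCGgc
SLC15A1: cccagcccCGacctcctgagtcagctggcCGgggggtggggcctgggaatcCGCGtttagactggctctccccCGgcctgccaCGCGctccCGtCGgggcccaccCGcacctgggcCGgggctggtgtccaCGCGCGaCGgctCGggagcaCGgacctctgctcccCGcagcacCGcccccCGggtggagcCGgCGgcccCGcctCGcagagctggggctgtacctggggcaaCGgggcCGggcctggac
SLC7A9: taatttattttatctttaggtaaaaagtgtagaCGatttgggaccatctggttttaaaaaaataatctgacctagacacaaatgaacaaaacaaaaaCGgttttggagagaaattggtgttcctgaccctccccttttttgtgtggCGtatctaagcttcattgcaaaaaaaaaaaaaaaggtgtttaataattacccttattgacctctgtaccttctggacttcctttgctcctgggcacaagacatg
SI: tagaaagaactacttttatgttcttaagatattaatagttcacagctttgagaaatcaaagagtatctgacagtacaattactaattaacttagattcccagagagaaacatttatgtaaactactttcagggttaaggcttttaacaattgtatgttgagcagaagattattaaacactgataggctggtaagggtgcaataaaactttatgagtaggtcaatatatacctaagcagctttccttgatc
SLC9A3: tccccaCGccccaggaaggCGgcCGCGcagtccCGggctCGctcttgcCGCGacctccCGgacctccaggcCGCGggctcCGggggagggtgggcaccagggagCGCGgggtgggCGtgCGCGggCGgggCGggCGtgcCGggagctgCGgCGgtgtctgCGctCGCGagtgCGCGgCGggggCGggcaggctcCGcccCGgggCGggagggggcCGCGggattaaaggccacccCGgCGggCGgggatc
SLC28A1: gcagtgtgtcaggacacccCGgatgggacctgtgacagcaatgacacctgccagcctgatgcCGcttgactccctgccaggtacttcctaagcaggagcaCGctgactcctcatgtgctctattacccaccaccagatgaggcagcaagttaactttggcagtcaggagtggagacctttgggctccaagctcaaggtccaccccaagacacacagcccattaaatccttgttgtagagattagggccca
SLC40A1 and SLC9A3 each hold 38 CpG in these bases and SLC15A1 26, whereas SLC7A9 and SLC28A1 hold 3 each.

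Among the hydrolases, DPP4 had the strongest start interval. DPP4, a peptidase that removes dipeptides from the amino end of peptides, had its interval within chr2:162073139-162074680 over the lists. It crossed the start in 3 lists and ended inside the gene in the other 5, and lay within 1 kb of the divergent transcript DPP4-DT. In those 5 lists DPP4 had a separate, weaker interval with its summit 0.225 to 0.302 kb before the start. The percentiles that follow are those of the stronger interval. Its H2A.Z.1 interval stood at percentiles 87.1 and 89.8 in subconfluent cells (Exp1 and Exp2) and at 68.5 and 75.2 in postconfluent cells. Its H2A.Z.2 interval stood at 70.4 and 81.8 before confluence and at 64.8 and 68.9 after it. Within each isoform both postconfluent values were under both subconfluent values, and the limma test of that difference is given below. Here and for the genes below, the share of all genes whose 2 states did not overlap was not counted. With 2 lists against 2, values that do not overlap do not by themselves show a difference. The summit of the stronger interval lay 233 to 507 bp inside the gene.

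TREH, the trehalase that splits trehalose, had a middling interval at its start in all 8 lists. Its percentiles were 45.1 and 26.0 (H2A.Z.1 subconfluent), 46.4 and 45.3 (H2A.Z.1 postconfluent), 55.3 and 36.6 (H2A.Z.2 subconfluent) and 52.3 and 51.5 (H2A.Z.2 postconfluent). The H2A.Z.1 values were higher postconfluent by a very small margin (45.3 against 45.1), and the H2A.Z.2 values overlapped. A separate interval deeper in TREH, with a summit a median of 20.2 kb from the start, lay within 1 kb of an end of the neighbour PHLDB1 and was also in all 8 lists (percentiles 40.5 to 61.7). ALPI, the intestinal alkaline phosphatase, was occupied at its start in 7 lists, all but H2A.Z.2 postconfluent Exp1. Its percentiles ran from 17.5 to 42.5 with a median of 27.1, the lower part of each list.

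ANPEP, aminopeptidase N, has 2 RefSeq starts, and they differed. The outer start, whose 300-base promoter holds 32 CpG, was empty in all 8 lists. At the inner start, with 10 CpG, an interval at chr15:89806320-89807599 was in 7 lists, at percentiles 70.7 and 52.4 (H2A.Z.1 subconfluent), 48.8 and 12.3 (H2A.Z.1 postconfluent), 38.6 and 48.4 (H2A.Z.2 subconfluent) and 44.1 (H2A.Z.2 postconfluent Exp1). The H2A.Z.1 values were lower postconfluent without overlap. The interval that put ANPEP among the genes occupied in all 8 lists lay at its far end, the end of transcription, at percentiles 16.5 to 56.2. ANPEP thus had tagged H2A.Z at its far end and its inner start but not at the CpG-rich outer start.

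The other hydrolases and receptors had an interval at an end or start in 1 or none of the reduced lists. NAALADL1, a peptidase of the brush border, had 1 interval in 1 list (H2A.Z.1 subconfluent Exp2, percentile 23.0), which it shared with an end of CDCA5. GGT1, a gamma-glutamyltransferase that breaks down glutathione, had 1 at its inner start in 1 list (H2A.Z.2 postconfluent Exp2, percentile 8.84). In the whole lists an interval reached an end of NAALADL1 in 6 and the inner start of GGT1 in 5. The other 9 had none at an end or start: SI (sucrase-isomaltase), LCT (lactase), MGAM (maltase-glucoamylase), ENPEP (aminopeptidase A), MEP1A and MEP1B (the meprin subunits), TMPRSS15 (enteropeptidase, which activates trypsinogen), CUBN (cubilin, the receptor for intrinsic factor and vitamin B12) and MME (neprilysin).

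Of these 9 genes, 7 had their nearest interval a median of 31.3 kb or more away. The nearest interval was a median over lists of 584 kb from the start of TMPRSS15, 264 kb from that of MME, 140 kb from an end of MEP1A, 128 kb from the start of SI, 71.1 kb from that of CUBN, 64.3 kb from that of ENPEP and 31.3 kb from that of MEP1B. The exceptions were MGAM, with a median of 19.3 kb, and LCT, with 5.05 kb. Both had an interval inside the gene in all 8 lists. In the whole lists, an interval reached the start of ENPEP in 2 lists, that of MME in 1 and an end of LCT in 1, and none reached those of SI, MGAM, MEP1A, MEP1B, TMPRSS15 or CUBN.

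Among the 5 genes for carriers of peptides and amino acids, SLC15A1, SLC7A9 and SLC1A1 were occupied in all 8 lists and SLC6A19 in 7. SLC15A1 (PEPT1), which takes up dipeptides and tripeptides with protons, had an interval of 1017 to 1687 bp at chr13:98751445-98753133 in all 8 lists. Its H2A.Z.1 interval stood at percentiles 69.8 and 89.7 before confluence and 76.9 and 98.7 after it. Its H2A.Z.2 interval stood at 49.4 and 82.7 before and 94.2 and 97.9 after confluence. The 2 states did not overlap for H2A.Z.2 and overlapped for H2A.Z.1, and in each experiment of each isoform the postconfluent value was the higher. SLC7A9, the light chain of the cystine transporter, stood at 78.6 and 87.5, 84.4 and 76.4, 84.4 and 73.8, and 79.6 and 79.1 in the order H2A.Z.1 subconfluent, H2A.Z.1 postconfluent, H2A.Z.2 subconfluent and H2A.Z.2 postconfluent. All 8 values lay between 73.8 and 87.5, so neither states nor isoforms stood apart. SLC3A1, the heavy chain that partners it, had no interval at either end in any list.

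SLC1A1 (EAAT3), a carrier of glutamate and aspartate, stood at 78.0 and 63.0, 69.6 and 87.3, 68.2 and 55.2, and 74.9 and 84.1 in the same order. The H2A.Z.2 values were higher postconfluent without overlap, and the H2A.Z.1 values overlapped. Its interval, at chr9:4489564-4490414, lay wholly before the start and within 1 kb of an end of GLIS3, so it cannot be assigned to either gene. SLC6A19 (B0AT1), the neutral amino acid carrier of the brush border, had an interval with its summit at -1585 to -1249 bp from the start in 7 lists. Its percentiles were 82.6 (H2A.Z.1 subconfluent Exp2), 84.2 and 81.1 (H2A.Z.1 postconfluent), 75.6 and 75.1 (H2A.Z.2 subconfluent) and 91.7 and 88.4 (H2A.Z.2 postconfluent). The list without it, H2A.Z.1 subconfluent Exp1, had the same interval at percentile 55.3, just outside the 1 kb window.

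None of the 3 sugar carrier genes had an interval at an annotated end, although SLC2A2 and SLC2A5 had one close by. SLC2A2 (GLUT2), the facilitative glucose carrier, counted as empty in all 8 lists, yet each list had an interval 1.21 to 1.29 kb before its start, at chr3:171027933-171029092 and percentiles 62.8 to 92.1 (median 81.4). SLC2A5 (GLUT5), the fructose carrier, was empty at its annotated ends, but its RefSeq start lies 24560 bp inside the outer end and was occupied in 6 lists at percentiles 38.9 to 61.0. A stronger interval, in all 8 lists at percentiles 58.6 to 91.1, lay a median of 9.73 kb before that start and inside the annotated gene. SLC5A1 (SGLT1), the sodium-coupled glucose carrier, was empty at its ends in the reduced and in the whole lists, with the nearest interval 7.43 to 71.9 kb from its start. Within 2 kb, 13 of the 39 genes were occupied at an annotated end in all 8 lists, against 8 within 1 kb. A wider window can only raise this count for any set of genes, and the share of all genes within 2 kb was not counted.

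Genes of bile acid and sterol transport had weak or patchy intervals. SLC10A2 (ASBT), which takes bile acids up from the lumen, was empty, with the nearest interval a median of 217 kb away. SLC51A and SLC51B encode the subunits of the basolateral bile acid exporter OST, and each had an interval in 4 lists, though not the same 4. SLC51A stood at 66.6 for H2A.Z.1 in subconfluent Exp1, 64.3 for H2A.Z.1 in postconfluent Exp2, and at 6.89 (subconfluent) and 33.9 (postconfluent) for H2A.Z.2 in Exp2. A wider look showed an interval of SLC51A in all 8 lists with a median summit 1.33 kb before the start, and in 5 of them it ended outside the 1 kb window. H2A.Z.2 subconfluent Exp2 was among those 5, and its value of 6.89 is that of a separate interval nearer the start. SLC51B stood at 8.97 and 31.1 (H2A.Z.1 subconfluent), 24.9 (H2A.Z.2 subconfluent Exp2) and 42.3 (H2A.Z.2 postconfluent Exp2), in an interval that also lay within 1 kb of an end of RASL12. ABCG5 and ABCG8, the subunits of the sterol exporter, are divergent neighbours and shared 1 interval at chr2:43837989-43839291, found in 6 lists at percentiles 7.09 to 35.5, so they count as 1 observation.

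Of the genes for iron and vitamins, SLC40A1 had the highest median percentile of the start intervals of the 39 genes (96.1), although SLC15A1 stood higher in 3 lists. SLC40A1 (ferroportin), which exports iron to the blood, stood at 97.3 and 92.5 (H2A.Z.1 subconfluent), 96.0 and 90.3 (H2A.Z.1 postconfluent), 99.5 and 96.5 (H2A.Z.2 subconfluent) and 93.4 and 96.2 (H2A.Z.2 postconfluent). The interval, within chr2:189580233-189582230 over the lists, spanned the start in 6 lists and ended before it in 2. In those 2 lists a separate, weaker interval had its summit 0.295 kb (H2A.Z.1 subconfluent Exp2) and 0.211 kb (H2A.Z.2 postconfluent Exp1) inside the gene. The summit of the stronger interval lay at -419 to -291 bp from the start, before the 250 bases printed above. SLC11A2 (DMT1), which takes iron up from the lumen, has 4 RefSeq starts, and 1 block of intervals at chr12:51025620-51029099 covered 3 of them. It stood at 51.9 and 60.2, 43.3 and 33.6, 54.3 and 45.5, and 47.5 and 52.9 in the order H2A.Z.1 subconfluent, H2A.Z.1 postconfluent, H2A.Z.2 subconfluent and H2A.Z.2 postconfluent. The H2A.Z.1 values were lower postconfluent without overlap, and the H2A.Z.2 values overlapped.

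SLC46A1 (PCFT), the proton-coupled folate carrier, stood at 54.7 and 62.3, 65.2 and 79.7, 47.2 and 52.8, and 45.1 and 77.1 in that order. The H2A.Z.1 values were higher postconfluent without overlap, and the H2A.Z.2 values overlapped. SLC23A1, a vitamin C carrier, had a weak interval at its RefSeq start in 6 lists (percentiles 4.02 to 45.7) and at its annotated outer end in 3, all H2A.Z.1. Its 2 lists without an interval at the start were H2A.Z.2 of Exp1, subconfluent and postconfluent.

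The nucleoside carriers and the ion exchangers were empty or weak at their starts. SLC28A1 (CNT1) is a sodium-coupled carrier of pyrimidine nucleosides. In the reduced lists its start had no interval in the 4 subconfluent lists and had one in the 4 postconfluent lists. These stood at percentiles 6.26 and 45.0 (H2A.Z.1) and 5.56 and 3.43 (H2A.Z.2), and are among the weakest intervals in 3 of those lists. In the whole lists its start was occupied in 6 of 8, so this pattern was not kept. SLC28A2 (CNT2) was empty within 1 kb, with an interval 1.11 to 1.61 kb beyond its upper end in 7 lists, at an end of SLC28A2-AS1. SLC26A3, the chloride and bicarbonate exchanger, had its nearest interval a median of 58.5 kb away. SLC9A3 (NHE3), the sodium and proton exchanger, was empty at its start although its promoter holds 47 CpG, the same count as that of SLC40A1, and its nearest interval was a median of 2.01 kb from the start.

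Of the drug exporters, ABCB1 and ABCG2 were occupied at inner starts. ABCB1 (P-glycoprotein) stood at 51.8 and 55.0 (H2A.Z.1 subconfluent), 62.1 and 65.3 (H2A.Z.1 postconfluent), 74.8 and 12.2 (H2A.Z.2 subconfluent) and 57.3 and 70.2 (H2A.Z.2 postconfluent), with its summit a median of 113 kb inside the outer end. The H2A.Z.1 values were higher postconfluent without overlap. Its lowest value came from H2A.Z.2 subconfluent Exp2 and was far under the other 7. ABCG2 (BCRP) stood at 71.8 and 74.8, 58.2 and 72.4, 94.7 and 80.7, and 58.4 and 84.6 in the same order, in an interval that also touched LOC124900867. ABCC2 (MRP2), the apical exporter of conjugates, was empty within 1 kb, and in 6 lists the nearest interval lay 1.77 to 1.94 kb before its start at percentiles 30.8 to 69.9.

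Inside the genes, more than 1 kb from either end, 14 of the 39 genes held an interval in all 8 lists, against 20.2% of all genes, and 11 in no list, against 55.8%. Of the 36 genes with at least 10 kb between their end windows, these were 14 and 9, against 25.8% and 46.4% of the 13553 genes of that kind. Per list these were 17 to 21 genes (43.6% to 53.8%), against 27.0% to 33.5% of all genes. In 3 of the 14 (SLC15A1, SLC11A2 and ABCG2) the interval was the one at the gene's own start, and the other 11 had a further one. Of the 21 genes that were empty at their annotated ends, 14 had a body interval in at least 1 list. The other 7 (ENPEP, MEP1A, MEP1B, TMPRSS15, MME, SLC2A2 and SLC10A2) had none in any list. Among the 14 were ABCB1, ABCG2, SLC2A5 and GGT1, which had an interval at an inner start. SI, CUBN, SLC28A2, SLC26A3 and ABCC2 had a body interval in 1 list only. The share with a body interval over all genes with empty ends was not counted. Over the same 36 genes the median was 0.864 intervals per 100 kb, against 0.170 over the 13553, and the latter had an upper quartile of 1.74. Gene length and neighbouring genes differ between the sets, and their part in this was not tested.

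Merged over the lists, the bodies of the 39 genes held 56 separate regions. Of these, 19 were in all 8 lists, in 11 genes, and 21 were in 1 list only. Another gene's annotated end or start lay within 1 kb of 7 of the 19, such as that of RUNDC3B inside ABCB1 (percentiles 33.6 to 95.3) and that of LRRC75B inside GGT1 (25.5 to 82.2). SLC9A3, empty at its start, was the most densely filled, with 6 to 10 intervals per list (mean 6.88 ± 1.36, SD over 8 lists), or 13.2 per 100 kb, which was the 98.9th percentile of genes. Its strongest region, a median of 18.2 kb from the start, stood at percentiles 82.8 to 96.4 in all 8 lists, and another at 9.56 kb stood at 55.1 to 91.6. The regions at 50.6 and 51.8 kb lay at ends of SLC9A3-AS1 and SLC9A3-OT1.

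SLC28A1 held the highest mean number, 6 to 9 intervals per list (mean 7.25 ± 1.28, SD over 8 lists), or 8.15 per 100 kb. Of its regions, those at medians of 24.1, 27.8, 43.5, 71.0 and 76.0 kb from the start were in all 8 lists, and that at 71.0 kb was the strongest, at percentiles 68.0 to 86.7. No annotated end of another gene lay at any of these 5. In the reduced lists the body of SLC28A1 thus carried tagged H2A.Z in both states, while its start was listed in postconfluent cells only. With whole lists, its start was listed in 6 of 8. By density, among the 36 genes, ANPEP (8.94), SLC6A19 (8.71) and SLC51A (8.39 intervals per 100 kb) stood between SLC9A3 and SLC28A1, and SLC23A1 (7.58) came next. Inside LCT, a region a median of 43.6 kb from its lower end was in all 8 lists at percentiles 9.70 to 51.5, and MGAM had one 68.4 kb from its start at 9.49 to 60.4.

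**Figure D2:**
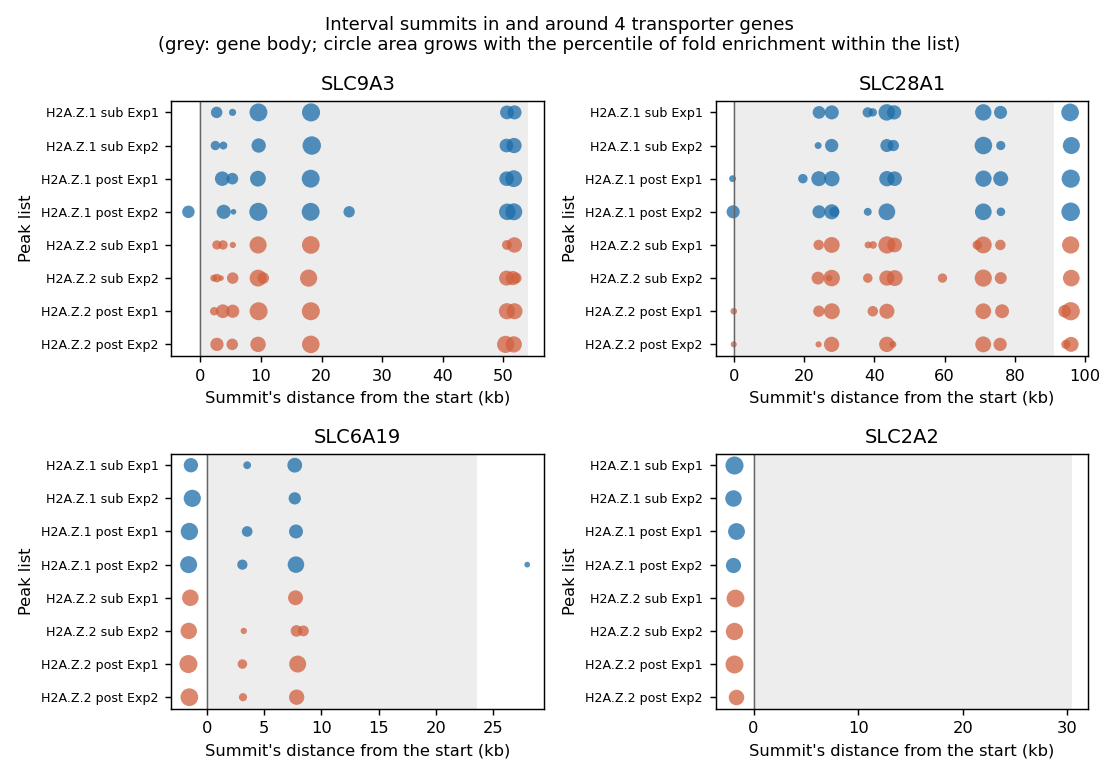
Distance of each interval's summit from the RefSeq start (x axis, kb; negative, before the start) in and around SLC9A3, SLC28A1, SLC6A19 and SLC2A2, with 1 row for each of the 8 lists, grey for the gene body, blue for H2A.Z.1, orange for H2A.Z.2, and circle area growing with the percentile. SLC9A3 and SLC28A1 have columns of intervals inside the gene in all 8 lists, and SLC2A2 has 1 interval before its start in each list and none inside.

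Between the states, no member passed the test. The 8 genes occupied at an annotated end in all 8 lists were ranked by fold enrichment. The ranking was among the 10887 genes occupied at 1 and the same annotated end in all 8 lists. Ranks were turned into normal scores, in SD units with 0 at the median gene, and fitted with limma. Over both isoforms, limma called 5 genes of 10887 between states (0.0459%) at a Benjamini-Hochberg adjusted p under 0.05 and 995 (9.14%) at an unadjusted p under 0.05, and 0 members were called. SLC15A1 had the largest difference: its postconfluent score was higher by 1.25 ± 0.44 (SE), with an unadjusted p of 0.0100 and an adjusted p of 0.355 in limma, and higher in 4 of 4 pairs of lists from the same isoform and experiment. Those pairs differed by 0.36 and 1.16 for H2A.Z.1 and by 2.11 and 1.37 for H2A.Z.2 (Exp1 and Exp2). For SLC15A1 and for DPP4 below, the share of all genes with 4 agreeing pairs was not counted. In single isoforms limma called 0 genes between states, with 751 (6.9%, H2A.Z.1) and 633 (5.81%, H2A.Z.2) at an unadjusted p under 0.05. For H2A.Z.2 alone the difference was 1.74 ± 0.63 (limma adjusted p = 0.820) and for H2A.Z.1 alone 0.76 ± 0.63 (limma adjusted p = 0.885). Without H2A.Z.1 postconfluent Exp2, the H2A.Z.1 difference of SLC15A1 was -0.21.

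DPP4 had the lowest difference. Postconfluent minus subconfluent, its score differed by -0.68 ± 0.34 (limma adjusted p = 0.562). It was the lower one in 4 of 4 pairs, with differences of -0.95 and -0.85 for H2A.Z.1 and of -0.29 and -0.64 for H2A.Z.2. The other 6 differed by 0.55 (SLC1A1), 0.51 (SLC46A1), 0.26 (TREH), -0.09 (SLC7A9), -0.17 (ANPEP, far end) and -0.44 (SLC40A1), with limma adjusted p from 0.663 to 0.960. Differences were above 0 for 4 of the 8 genes, with a median of 0.08 against -0.00 over all 10887. Fitted at RefSeq starts over 9150 genes, limma called 3 genes between states (0.0328%), none of them a member, and 860 (9.4%) at an unadjusted p under 0.05. There, ABCB1 differed by 0.55, SLC11A2 by -0.30 and ABCG2 by -0.60, with limma adjusted p from 0.649 to 0.830.

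**Figure D3:**
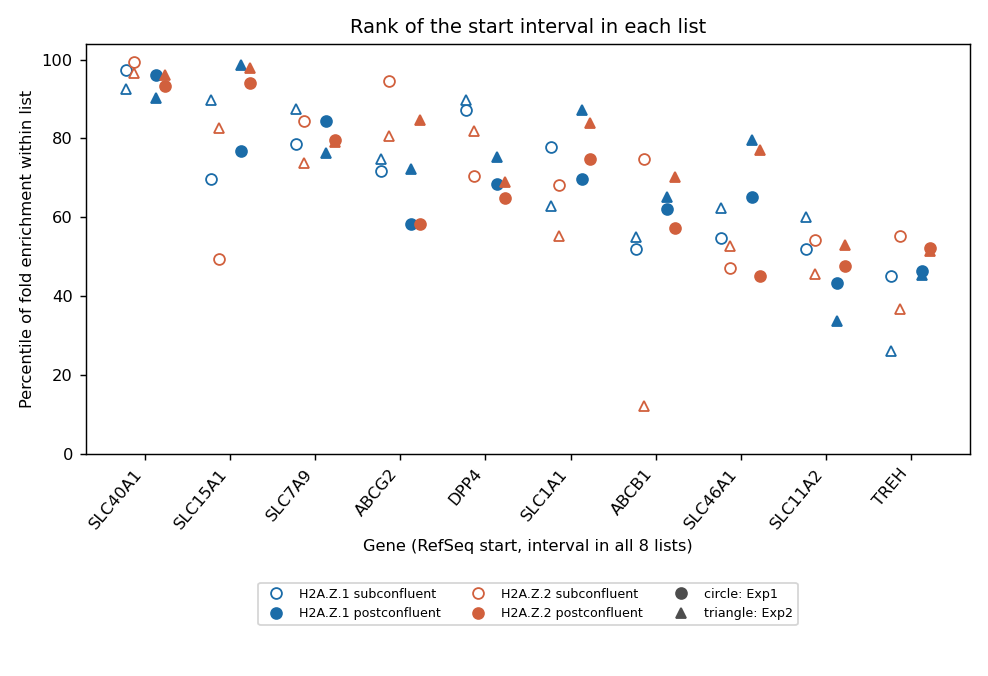
Percentile of fold enrichment within the list (y axis, 0 to 100) of the start interval of the 10 genes with one in all 8 lists at a RefSeq start, with 1 point per list (open, subconfluent; filled, postconfluent; blue, H2A.Z.1; orange, H2A.Z.2; circle, Exp1; triangle, Exp2). In SLC15A1 the filled points reach 94.2 to 98.7 in 3 of 4 lists, in DPP4 they lie at 64.8 to 75.2, and in most genes open and filled points mix.

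The isoforms did not differ detectably at these genes either. With limma, 0 of 10887 genes passed an adjusted p of 0.05 for H2A.Z.2 against H2A.Z.1 over both states, and 406 (3.73%) had an unadjusted p under 0.05. Limma also called 0 in subconfluent cells alone (400 unadjusted, 3.67%) and 0 in postconfluent cells alone (384 unadjusted, 3.53%). The differences of the 8 members, H2A.Z.2 minus H2A.Z.1, ran from -0.44 ± 0.34 (DPP4) to 0.35 ± 0.37 (SLC40A1), with a limma adjusted p of 1.00 for each. The difference between the isoforms' state effects was also called for 0 genes by limma (341 at an unadjusted p under 0.05, 3.13%). For SLC15A1 it was 0.98 ± 0.88 and for DPP4 0.43 ± 0.69 (limma adjusted p = 1.00 for both).

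By presence at an annotated end alone, 3 members were in both lists of one group and in neither of another. SLC28A1 was in the postconfluent lists only, for H2A.Z.1 (102 of 20037 genes, 0.509%, did the same) and for H2A.Z.2 (133 genes, 0.664%), and so in all 4 postconfluent and none of the 4 subconfluent lists, as were 21 genes (0.105%). SLC51B was in both subconfluent and neither postconfluent list of H2A.Z.1 (119 genes, 0.594%). SLC23A1, at its annotated end, was in both H2A.Z.1 and neither H2A.Z.2 list of subconfluent cells (130 genes, 0.649%). The other patterns held 0 members: H2A.Z.2 in subconfluent cells only (86 genes, 0.429%), H2A.Z.2 without H2A.Z.1 in subconfluent (34 genes, 0.17%) and postconfluent cells (28 genes, 0.14%), and H2A.Z.1 without H2A.Z.2 in postconfluent cells (100 genes, 0.499%). Nor was a member in all 4 subconfluent lists only (17 genes, 0.0848%), all 4 H2A.Z.2 lists only (1 gene, 0.00499%) or all 4 H2A.Z.1 lists only (9 genes, 0.0449%). With 2 lists against 2 no p under 0.05 can be reached, and none is given. In whole lists SLC28A1 was occupied at an annotated end in 7 lists and SLC51B in 7, and neither kept its pattern. SLC23A1 was occupied at its annotated end in 4 whole lists, again those of H2A.Z.1 alone, but at its RefSeq start in all 8. In the reduced lists, single regions of SLC11A2 and ANPEP were also in all 4 postconfluent lists and no subconfluent list. That of SLC11A2 (chr12:51029481-51030309) lay before its outermost start at percentiles 7.61 to 19.6. That of ANPEP (chr15:89811911-89813022) lay inside the gene at 9.37 to 66.6. Both genes had other intervals in both states, and the share of such regions over all genes was not counted.

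Occupied and empty members differed in promoter composition, with some overlap. In the 300 bases from 250 before to 50 after the start, the 10 genes occupied in all 8 lists had a median of 29.5 CpG and a GC content of 72.3%. The 11 genes occupied in 1 to 7 lists had a median of 8 CpG, and the 13 empty ones 2 CpG and 43.3% GC. The medians over all genes in these classes were 29, 23 and 6 CpG. With 20 or more CpG, 7 of 10 members were occupied in all 8 lists (78.1% of all such genes), and with 0 to 4 CpG, 0 of 10 were and 9 were empty (3.31% and 88.3% of all such genes). With 5 to 9 CpG, 2 of 9 members were occupied in all 8 lists and 0 were empty, whereas 14.2% and 65.4% of all such genes were. With 10 to 19 CpG, 1 of 5 members was occupied in all 8 lists and 2 were empty (54.5% and 33.8% of all such genes).

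Some members stood outside that order. SLC9A3 (47 CpG) and MME (30 CpG) were CpG-rich and empty, as was the outer start of ANPEP (32 CpG). SLC7A9 (7 CpG) and TREH (5 CpG) were CpG-poor and occupied in all 8 lists. CpG content is shared with neighbouring starts and with GC content, and no test was made over these genes.

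**Figure D4:**
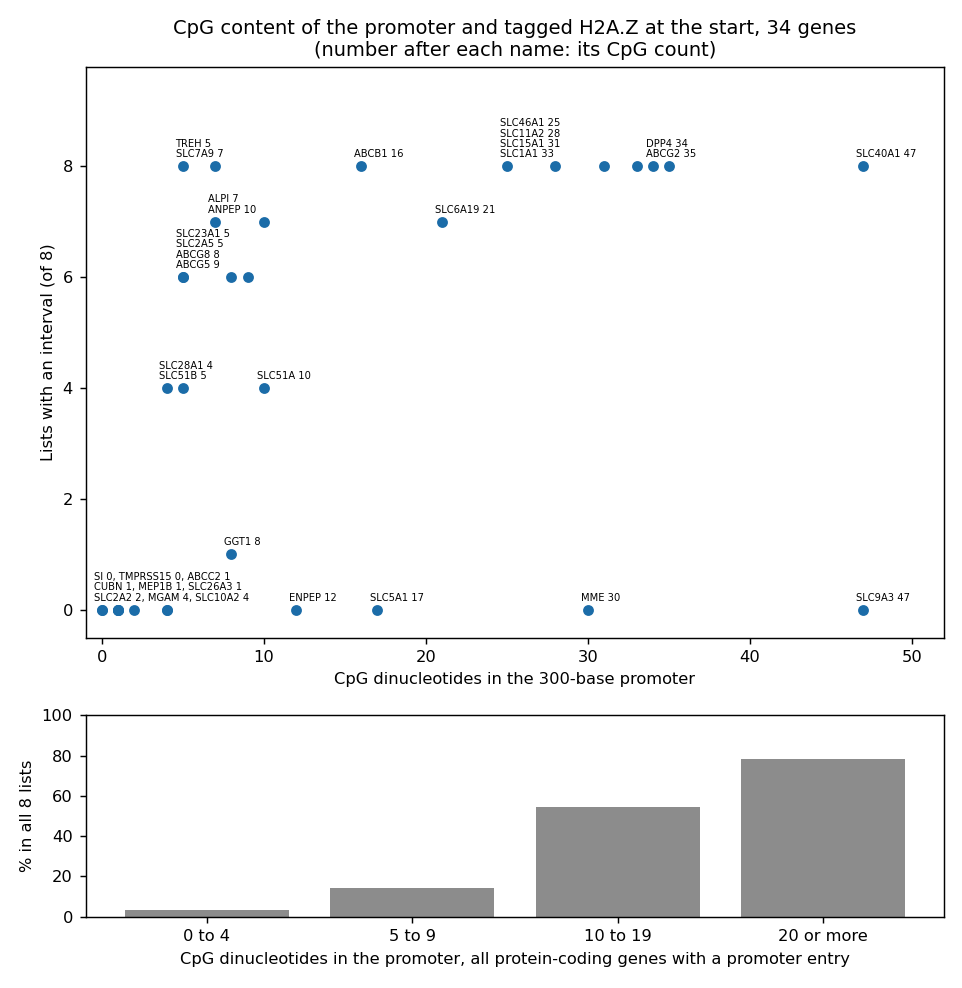
Upper panel: CpG dinucleotides in the 300-base promoter (x axis) against the number of lists, of 8, with an interval within 1 kb of that start (y axis), 1 point for each of 34 genes at its best occupied start. Lower panel: percent of all genes occupied in all 8 lists by CpG count, 3.31, 14.2, 54.5 and 78.1% from left to right. SLC9A3 and MME are the CpG-rich points at 0 lists.

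Short motifs of intestinal factors were searched in the same 300 bases on both strands, with 34 members counted at 1 start each. TATAAA, the core of the TATA element, was in 7 members and in 9.24% of all genes with a promoter entry, among them 5 of the 13 empty and 0 of the 10 fully occupied members (19.1% and 4.07% of all genes in these classes). TTTATGG or TTTATTG, taken for CDX2, was in 4 members and in 4.42% of all genes. Those 4 were empty: SI, MGAM, MEP1B and SLC10A2, where 7.63% of all empty and 2.82% of all fully occupied genes held these letters. They were also at 2 further starts of the fully occupied SLC11A2, which had an interval in 8 and 7 lists and were not the start counted for it. In SI the match lay at -52 to -46 from the start, where it reads caataaa in the sequence printed above. TGATAA or AGATAA, taken for GATA factors, was in 9 members (11.2% of all genes), 4 of them empty and 2 fully occupied (21.5% and 5.85% of all genes in these classes). CAAAGTCCA, taken for HNF4, was in TREH alone, at -73 to -65 (0.297% of all genes). The TATA and CDX2 letters can overlap in AT-rich sequence, and a match is a string of letters and not a bound site.

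Other genes of the same functions were counted in the same way. Of 53 further transporters, 34 (64.2%) were occupied at an annotated end in all 8 lists and 10 (18.9%) in none. The occupied ones included SLC16A1 (lactate), SLC3A2 (the heavy chain of amino acid carriers) and SLC12A2 (sodium, potassium and chloride). Of 26 further hydrolases and partners, 10 (38.5%) were occupied in all 8 lists, including ACE, ENPP7, LRP2 and AMN (the partner of cubilin), and 12 (46.2%) in none, including CPO. The shares for the 39 genes were 20.5% and 53.8%. No test was made between these lists, which differ in how they were put together, and their CpG content was not compared.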

How the data were processed

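Flag ChIP-seq peak lists, 1 for each of 8 samples, were read as deposited. Reads were aligned to hg38 with BWA and deepTools was used, per the submitters' processing notes. Peak caller, control and any use of the spike-in were not given in the sources used here. Within each list only, the authors' score column, their fold enrichment (a ratio) and their deposited −log10 p and −log10 q values were used, and the lowest deposited −log10 q was 3. The labels name 17 samples, of which 9 (total H2A.Z precipitations and input) are not analysed here.

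Lists were cut to their 30603 strongest intervals by −log10 p, on chromosomes 1 to 22, X and Y. Occupied means that at least 1 bp of an interval fell within 1 kb of the gene end or start. Gene ends came from RefSeq genes (GRCh38.p14, the same assembly as hg38), and starts, strand and sequences from RefSeq promoters. Exons, introns and UTRs were not used. Every one of the 39 genes is accounted for, and those occupied in at least 1 list are given by list, those in all 8 also with their contrasts. Scores were fitted with limma 3.58.1 in R 4.3.3, as 4 group means with a shared spread, 7 contrasts, 2-sided, with Benjamini-Hochberg adjustment over all ranked genes, after the script was tested on simulated data. Each gene was scored at the annotated end with the higher mean rank. Members and lists were chosen with earlier results of these data known, and a few genes of the comparison lists are counted but not reported by name here. Alternatives changed the list length, window, overlap, ranked value, gene end, filter and replicate block, and left out each list.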

Additional observations from a re-analysis of the deposited data

How the results depend on the processing

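The count of 8 genes occupied in all lists became 13 with a 2 kb window, and the count of 21 empty genes became 13 (of 34) at RefSeq starts. When each list was left out in turn they were 8 to 9 and 21 to 22. The 14 genes with body intervals only became 8 with only the strongest 15301 intervals of each list, 9 with equal covered length and 7 at RefSeq starts (12 to 14 without 1 list). Of all genes, those in both lists of one group and neither of the other numbered 221 for H2A.Z.1 between states, and this became 396 (strongest 15301) and 487 (equal covered length), and 221 to 660 without 1 list. For H2A.Z.2, 219 became 127 (whole lists) and 366 (strongest 15301), and 219 to 560 without 1 list. Between isoforms, 164 in subconfluent cells became 256 (strongest 15301) and 164 to 586 without 1 list, and 128 in postconfluent cells became 283 (whole lists), 228 (strongest 15301), 309 (equal covered length), 76 (RefSeq start) and 128 to 485 without 1 list. Leaving out a list leaves that group with 1 list, which eases the criterion. The 4 such cases among the 39 genes became 2 with whole lists, 1 with the strongest 15301, 0 with equal covered length and 4 to 8 without 1 list. The counts of 5 called by limma between states became 0 with the strongest 15301 or equal covered length, 3 by summit or at RefSeq starts, 41 when ranked by −log10 p, 8 in at least 6 lists and 0 to 5 without 1 list. For H2A.Z.1 alone, limma called 3 with a 2 kb window (0 to 2 without 1 list), and for H2A.Z.2 alone 3 in at least 6 lists (0 to 1). Between isoforms it called 2 in subconfluent cells in at least 6 lists and 1 in postconfluent cells by summit, and for the difference of state effects 1 in at least 6 lists. The cause of these changes was not tested.

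The labels do not say that an experiment number marks a shared culture or day, and the numbers did not pair the samples across isoforms: deviations from the group means correlated at 0.21 and 0.16 between states of 1 isoform and at -0.06 to 0.05 between isoforms (10887 genes). Lists of 1 isoform and number also share a run name. With the replicate block, limma called 9 genes between states, 2 for H2A.Z.1 and 1 for H2A.Z.2, and 0 members. No member was called in any setting or contrast (lowest limma adjusted p 0.145, for SLC15A1, whose state difference ran from 0.76 to 1.74 and adjusted p from 0.145 to 0.788). Of 388 alternative values of single genes, 22 reversed, 18 of them with a list left out. With a 2 kb window TREH fell to -0.21 between states and -0.21 between isoforms, and ranked by −log10 p the isoform differences were 0.043 for SLC15A1 and 0.088 for SLC7A9. Without 1 list, values ran from -0.45 to 0.11 (ANPEP, state), -0.23 to 0.32 (ANPEP, isoform), -0.54 to 0.43 (SLC15A1, isoform), -0.21 to 1.73 (SLC15A1, H2A.Z.1 state), -0.25 to 0.060 (SLC7A9, state), -0.28 to 0.024 (SLC7A9, isoform) and -0.38 to 0.087 (SLC1A1, isoform). The cause was not tested. Peak lists set no depth limit that could be computed.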
